A study of Mus musculus with 4 samples.

Results

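Cornified envelope genes encode the proteins of the cross-linked shell that a squamous epithelial cell builds under its membrane as it dies, and the desmosomal proteins that hold such cells together. They were taken by gene symbol: all genes whose symbol starts with Lce, Sprr, or Dsg or Dsc and a digit, and 17 further genes named one by one, each read from probe sets annotated to exactly 1 symbol. This gave 46 genes on 66 probe sets, of 18193 genes in all, and where a gene had several, the one brightest on average was used. Flg2, the 1 named gene without such a probe set, is not analysed here. Expression was measured on 4 Affymetrix mouse arrays with RNA of the gastric corpus epithelium. A single array each was hybridised for tissue taken 12 hours, 2.5 days or 4.5 days after tamoxifen and for vehicle at 2.5 days. Every array held RNA pooled from 3 wild-type mice, 6 weeks old at treatment, and the labels name C57BL/6, BALB/c and FVB/N without tying a strain to an array. Tamoxifen, a selective estrogen receptor modulator, was given into the peritoneum at 5 mg per 20 g of body weight on 1 or 3 days, in 10% ethanol and 90% sunflower seed oil, with the number of days not given by array. With 1 array per group there is no spread between mice, no test and no p-value. The single vehicle array, taken at 2.5 days, serves all 3 comparisons with tamoxifen. At 12 hours and 4.5 days treatment and time of collection therefore cannot be told apart.

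In squamous epithelium, basal cells express Krt5 and Krt14, and cells that leave the basal layer switch on other keratins and, later, the envelope proteins. Transglutaminases join involucrin, loricrin, the small proline-rich proteins and the late envelope proteins to a scaffold of desmosomal plakins. The glandular corpus is lined by simple columnar cells that form no cornified envelope, whereas the mouse forestomach, which borders the corpus, is lined by keratinised squamous epithelium. Desmoplakin, Dsg2 and Dsc2 belong to the desmosomes of simple epithelia too.

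Each level is a log2 RMA value, and a difference of 1 between levels is 2-fold. Across the 2.5-day and 4.5-day tamoxifen arrays, the pair that lay closest, the difference of genes above the array median had a robust SD of 0.14, which holds technical error as well as differences between pools and times. Against vehicle this spread was 0.257 at 12 hours, 0.338 at 2.5 days and 0.373 at 4.5 days. A gene is counted below as called when it differed at least 2-fold and the brighter of both values reached the median of its own array, which lay between 5.30 and 5.34 on the 4 arrays. Of the 46 genes 17 reached the median 12 hours after tamoxifen and 38 at each later time, against 36 in vehicle. Below the median on all 4 arrays were 8 genes, Lce1g, Lce1l, Lce1m, Sprr1b, Sprr2h, Dsc3, Dsg1a and Dsg1b, so their differences rest on dim probe sets. RMA compresses differences at the dim end, where most envelope genes lay at 12 hours.

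At 12 hours after tamoxifen, 25 of the 46 genes were at least 2-fold lower than in vehicle and 1, Sprr1a, was at least 2-fold higher. Of the 46, 36 had a brighter value at or above the median and could be counted, and 38 in each other comparison. By the same rule 1.92% of 12253 genes were lower and 0.996% higher. A gene below the median on both arrays cannot enter that count, so the count was repeated at any level, where 27 of 46 were lower, against 1.42% of all 18193 genes, and the same 1 was higher, against 0.698%. The median difference of all 46 was -1.39, with -0.02 over all genes. At least 16-fold lower were 13 of them, and for 37 of 46 the 12-hour array was the lowest of the 4. Over all genes these shares were not counted. After 2.5 days 9 genes were at least 2-fold lower than vehicle and 1 higher, where 1.94% and 3.32% of 12295 genes were, and the same 9 and 1 at any level, where 1.36% and 2.33% were. After 4.5 days 3 were lower and 1 higher, where 2.72% and 3.80% of 12303 genes were, and 3 and 1 at any level, where 1.93% and 2.62% were. The lower count was 5 with each array centred on its median over genes above the array median on all 4 arrays. It was 6 with quantile normalization repeated. The medians at these times were -0.37 and -0.33. In bulk RNA, fewer cells of a type and less RNA per cell cannot be told apart. How much tissue from outside the glandular corpus each pool held was not measured. With 1 pool per group it cannot be told apart from the group.

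**Figure D1:**
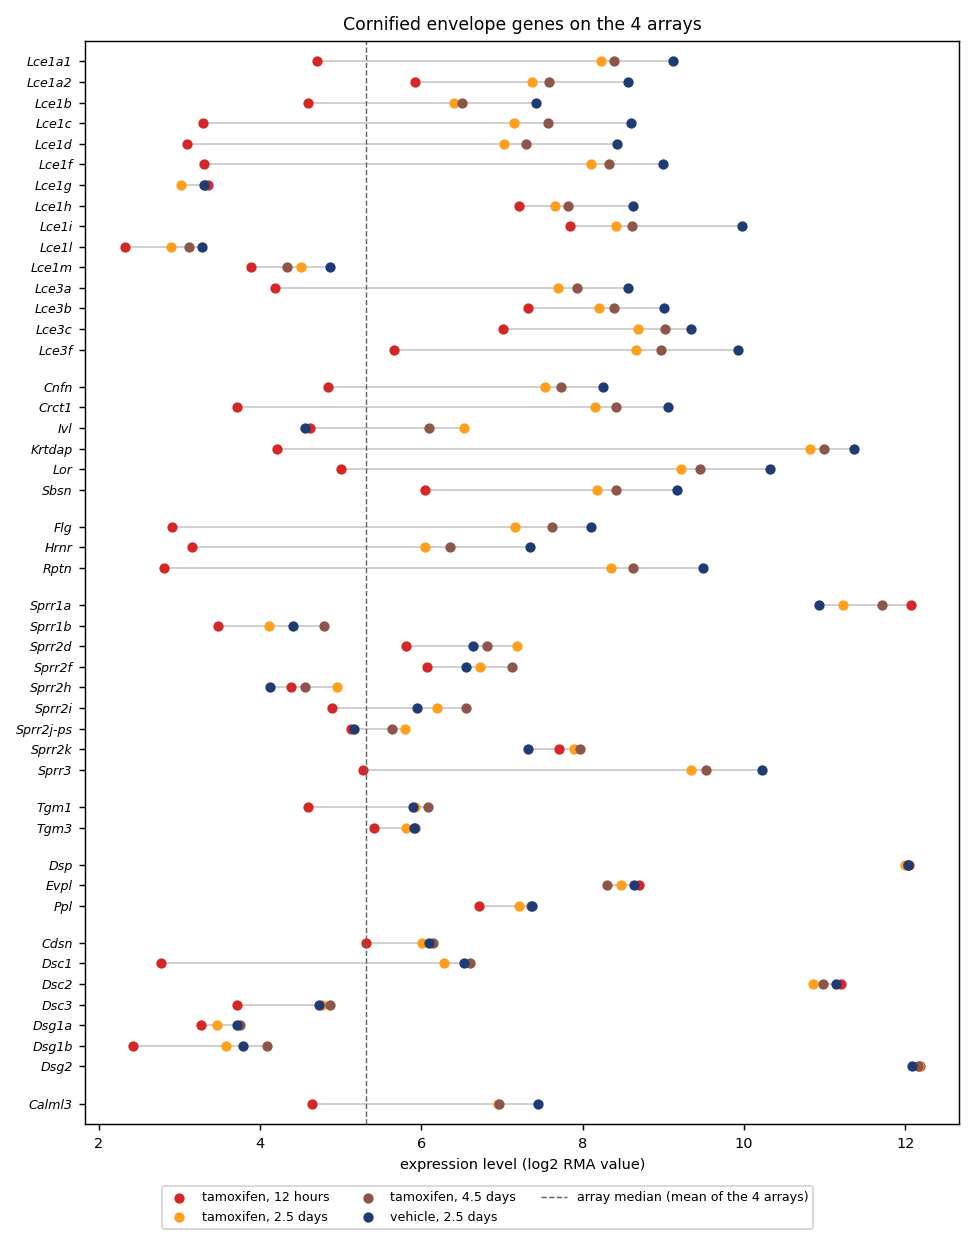
Level of each of the 46 genes (log2 RMA value, horizontal axis) on the 4 arrays, 1 point per array, grouped by role, with the mean of the array medians as a dashed line. The 12-hour tamoxifen array is the lowest of the 4 for 37 genes, while Dsp, Dsg2, Dsc2 and Evpl stay within 0.5 of vehicle on all 3 tamoxifen arrays. Levels of different genes come from different probe sets and are not to be compared.

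Genes grouped here as structural envelope proteins, with the secreted Krtdap and Sbsn among them, showed the widest range of any role at 12 hours. It ran between -7.15 for Krtdap and 0.07 for Ivl. Krtdap, a small secreted protein of differentiating keratinocytes, was at 4.21 at 12 hours, 10.82 at 2.5 days and 10.99 at 4.5 days after tamoxifen, and at 11.36 in vehicle. Its difference at 12 hours, -7.15, was the lowest of all 18193 genes by the probe sets used. It is 142-fold, or 0.703% of the vehicle signal. Only the 12-hour array stood apart, since the other 3 lay within 0.54 of each other. Loricrin (Lor), a glycine-rich protein that makes up much of the envelope in skin, was at 5.00 at 12 hours, 9.21 at 2.5 days and 9.45 at 4.5 days, and at 10.32 in vehicle. The differences from vehicle were -5.32, -1.11 and -0.87. Another probe set of Lor, nearly as bright on average, gave -7.41 at 12 hours, below the value of Krtdap. Crct1, a gene of the same cluster, had a level of 3.71 at 12 hours, 8.15 at 2.5 days, 8.42 at 4.5 days and 9.06 in vehicle. Cornifelin (Cnfn), an envelope component, was at 4.84, 7.53 and 7.73 at the 3 tamoxifen times and at 8.25 in vehicle, and suprabasin (Sbsn), a secreted protein of suprabasal cells, at 6.04, 8.18 and 8.41, with 9.16 in vehicle. At 12 hours Crct1, Cnfn and Sbsn differed by -5.35, -3.41 and -3.12. All 5 of these genes had the same order, with the 12-hour array lowest and vehicle highest.

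Involucrin (Ivl), an early scaffold protein of the envelope, departed from them. Its level was 4.62 at 12 hours, 6.53 at 2.5 days and 6.09 at 4.5 days after tamoxifen, and 4.55 in vehicle. It was thus near vehicle at 12 hours, with a difference of 0.07, and higher by 1.98 and 1.54 at the later times, the 1 member called higher at each of them. This rests on 1 probe set that was below the array median at 12 hours and in vehicle. The other probe set of Ivl was below the median on all 4 arrays, at -0.22, -0.28 and -0.32 from vehicle.

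Profilaggrin-type proteins join an S100 domain to long repeats, and all 3 that were measured were called lower at 12 hours. Filaggrin (Flg), which bundles keratin filaments, was at 2.91 at 12 hours, 7.16 at 2.5 days and 7.61 at 4.5 days, against 8.10 in vehicle. Hornerin (Hrnr) was at 3.15, 6.04 and 6.36 at these times, against 7.34 in vehicle. Repetin (Rptn) was at 2.81, 8.35 and 8.62, against 9.49 in vehicle. The differences at 12 hours were -5.19, -4.19 and -6.68 for Flg, Hrnr and Rptn. At 2.5 days they were -0.93, -1.30 and -1.14, so that Hrnr and Rptn were still past 2-fold, and at 4.5 days none of the 3 was. Rptn has 2 more probe sets, below the median on every array, which differed by 0.10 and 0.09 at 12 hours.

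Late cornified envelope (Lce) genes encode small proteins, rich in glycine, serine and cysteine, that enter the envelope at a late step. Of the 15 measured, 12 were at least 2-fold lower at 12 hours, 6 at 2.5 days and 3 at 4.5 days, and none was at least 2-fold higher. The 3 without a call at 12 hours, Lce1g, Lce1l and Lce1m, were below the median on all arrays, and differed by 0.05, -0.95 and -0.97. Over all 15 the medians against vehicle at the 3 times were -2.65, -0.90 and -0.73. Lce1f was at 3.30 at 12 hours, 8.10 at 2.5 days and 8.32 at 4.5 days, against 8.99 in vehicle, a difference at 12 hours of -5.69 or 51.6-fold. Lce1d differed by -5.34 at 12 hours, Lce1c by -5.30 and Lce1a1 by -4.42. Smaller differences were those of Lce1b (-2.83), Lce1a2 (-2.65) and Lce1h (-1.41). Of the 4 Lce3 genes, Lce3a and Lce3f differed by -4.38 and -4.26, and Lce3c and Lce3b by -2.33 and -1.69.

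Lce1i gave the lowest difference of all 46 genes at both later times. Its level was 7.85 at 12 hours, 8.41 at 2.5 days and 8.60 at 4.5 days, against 9.98 in vehicle, so its differences were -2.13, -1.57 and -1.37. Unlike Lce1f, it stayed above the array median at 12 hours, as did Lce1h (7.21, against 8.62 in vehicle), Lce3b (7.32, against 9.01), Lce3c (7.02, against 9.35), Lce1a2 (5.92, against 8.57) and Lce3f (5.66, against 9.92). Lce1h, Lce1i, Lce3b, Lce3c, Lce1d, Lce1a1 and Lce1m were read from probe sets whose suffix, _x_at or _s_at, marks probes that can bind related transcripts. Lce1 genes are close copies of one another, so their single values are uncertain, and differences between them were not tested. With all such probe sets left out, 20 genes of the 39 still measured were at least 2-fold lower at 12 hours.

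Small proline-rich (Sprr) genes encode cross-bridging proteins of the envelope, and their directions differed. Of 9 measured, Sprr3 and Sprr2i were called lower at 12 hours and Sprr1a higher, and none was called at 2.5 or 4.5 days. Sprr3, abundant in oral and esophageal epithelium, was at 5.28 at 12 hours, 9.34 at 2.5 days and 9.53 at 4.5 days, against 10.22 in vehicle, with a difference of -4.95 at 12 hours. Sprr1a, which is also known as a gene induced by injury in other tissues, was at 12.07, 11.23 and 11.71 at the 3 times, against 10.93 in vehicle. Its differences were 1.14, 0.30 and 0.77, and the 12-hour array was the highest of the 4. Sprr2i was at 4.89, 6.20 and 6.56, against 5.95 in vehicle. All 6 Sprr2 genes, the pseudogene Sprr2j-ps among them, lay above vehicle at 2.5 and at 4.5 days, by 0.17 to 0.82 and by 0.17 to 0.64. At 12 hours 4 of the 6 lay below vehicle. The 6 ranged between -1.05 for Sprr2i and 0.38 for Sprr2k, with a median of -0.26. The 0.82 at 2.5 days is that of Sprr2h, below the median on all arrays and read from a probe set ending _s_at. Over genes above the median the robust SD against vehicle was 0.338 at 2.5 days and 0.373 at 4.5 days. The last gene of the family, Sprr1b, was below the median on all arrays, with -0.93, -0.30 and 0.38.

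**Figure D2:**
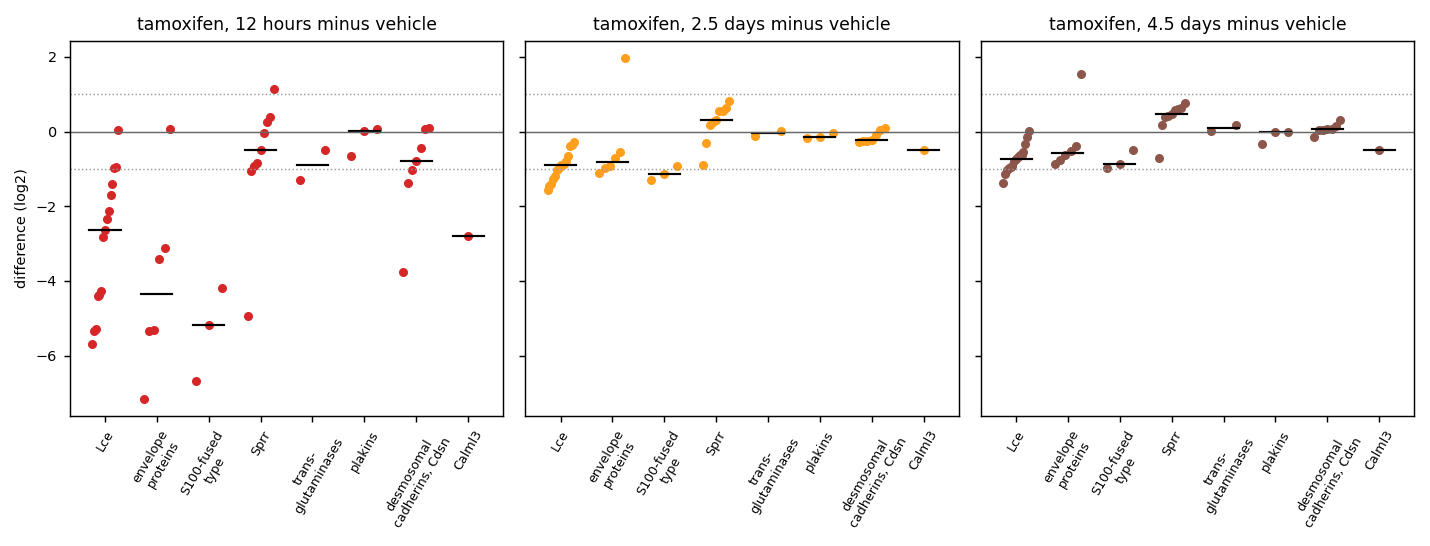
Difference of each gene from vehicle (log2, vertical axis) at 12 hours and at 2.5 and 4.5 days after tamoxifen, 1 point per gene by role, with the median of each role as a bar and 2-fold as dotted lines. At 12 hours the Lce genes have a median of -2.65 and the plakins one of 0.01, and the point near 2 at 2.5 days is Ivl.

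Among the enzymes that build the envelope, Tgm1, the membrane-bound transglutaminase of keratinocytes, was at 4.59 at 12 hours, 5.92 at 2.5 days and 6.09 at 4.5 days, against 5.90 in vehicle. Its difference of -1.30 at 12 hours was called, and the later ones, 0.03 and 0.19, were not. Tgm3, which is soluble, differed by -0.51, -0.11 and 0.01, while its second probe set, nearly as bright, gave 0.20, -0.33 and 0.37, so its direction at 12 hours is not settled. The 5 other transglutaminase genes, an outside list that includes the widely expressed Tgm2, had no call at any time, with Tgm2 at 0.58, 0.45 and 0.29 from vehicle. Calml3, a calmodulin-like protein of epithelial cells, was at 4.64, 6.95 and 6.96 at the 3 times, against 7.45 in vehicle, and was called lower at 12 hours with -2.81.

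The plakins and desmosomal cadherins split by gene. Desmoplakin (Dsp), which ties keratin filaments to the desmosome, was at 12.05, 11.99 and 12.03 at the 3 tamoxifen times, against 12.03 in vehicle. Dsg2 was at 12.18, 12.17 and 12.15, against 12.08, and Dsc2 at 11.20, 10.85 and 10.98, against 11.14. Envoplakin (Evpl) differed by 0.06, -0.16 and -0.34, and periplakin (Ppl) by -0.66, -0.17 and -0.01. None of these 5 was called at any time. Dsc1, the desmocollin of the upper epidermal layers, was at 2.78 at 12 hours, 6.28 at 2.5 days and 6.61 at 4.5 days, against 6.53 in vehicle. Among the 6 desmosomal cadherin genes and Cdsn it was the 1 called at 12 hours, with -3.76, and its later differences were -0.25 and 0.07. Corneodesmosin (Cdsn), an adhesive protein of the cornified layer, differed by -0.77, -0.08 and 0.05. The dim cadherin genes Dsg1b, Dsc3 and Dsg1a differed by -1.37, -1.02 and -0.44 at 12 hours.

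Of the 46 genes 30 lie on mouse chromosome 3 in the RefSeq annotation of GRCm38.p6, in the cluster known as the epidermal differentiation complex. At any level 19 of these 30 and 8 of the other 16 were at least 2-fold lower at 12 hours, and among the 8 was Krtdap, on chromosome 7. Neighbours in the cluster could have opposite directions. Sprr3 lies next to Sprr1a among the members, yet they differed by -4.95 and 1.14 at 12 hours. Ivl lies next in line, followed by Lce1a1 with -4.42.

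**Figure D3:**
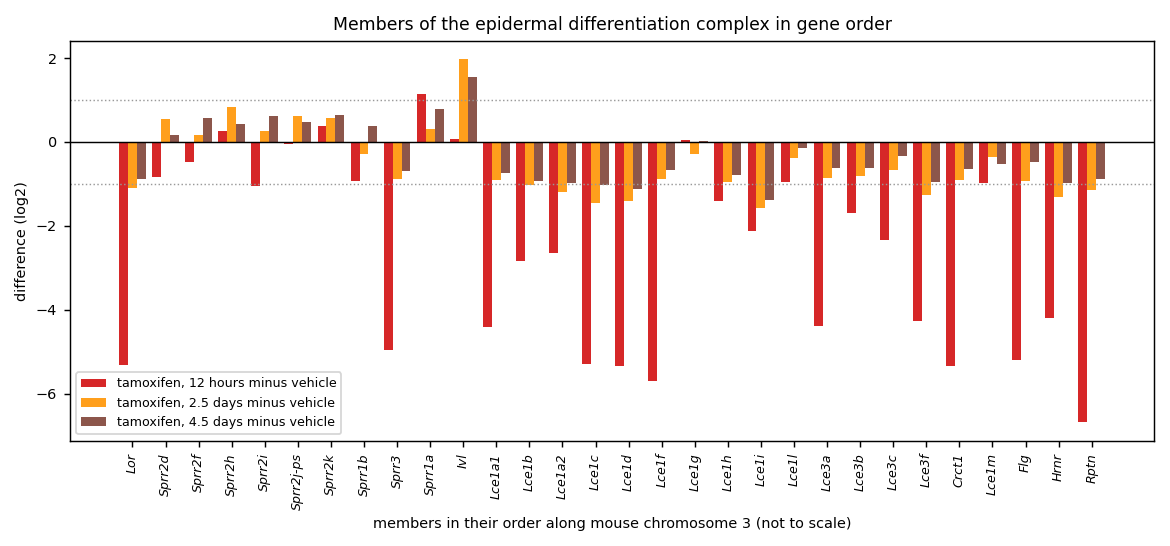
Difference from vehicle (log2, vertical axis, bars from 0) of the 30 members on chromosome 3 at 12 hours and at 2.5 and 4.5 days after tamoxifen, in their order along the chromosome and not to scale. At 12 hours deep bars stand at Lor (-5.32), at Sprr3 (-4.95) beside Sprr1a (1.14), and at most genes between Lce1a1 and Rptn, with Lce1g, Lce1l and Lce1m short of 2-fold.

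RefSeq promoter windows, 250 bases before to 50 after a gene's start, were held for 34 of the 46 genes, in 36 windows. The windows of Krtdap (GRCm38.p6, chr7:30787655-30787954, plus strand), Lor (chr3:92083093-92083392, minus strand), Sprr3 (chr3:92458671-92458970, minus strand) and Sprr1a (chr3:92485832-92486131, minus strand) are shown, since they head genes that were far lower at 12 hours and the 1 that was higher. Capitals mark a TATA box (TATAAA) or the binding motif of AP-1 (TGANTCA), a factor family that acts on many envelope genes.
Krtdap: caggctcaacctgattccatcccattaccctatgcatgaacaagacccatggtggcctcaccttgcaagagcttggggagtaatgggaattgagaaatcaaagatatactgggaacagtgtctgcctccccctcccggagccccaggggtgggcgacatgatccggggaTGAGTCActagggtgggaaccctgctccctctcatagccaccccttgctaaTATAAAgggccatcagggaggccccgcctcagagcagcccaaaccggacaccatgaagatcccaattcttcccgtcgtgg
Lor: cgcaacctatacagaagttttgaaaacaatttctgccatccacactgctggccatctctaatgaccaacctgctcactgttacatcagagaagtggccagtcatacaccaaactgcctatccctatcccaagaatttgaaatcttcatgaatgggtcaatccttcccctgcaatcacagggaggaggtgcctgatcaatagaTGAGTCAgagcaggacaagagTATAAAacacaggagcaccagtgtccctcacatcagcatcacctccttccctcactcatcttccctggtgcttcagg
Sprr3: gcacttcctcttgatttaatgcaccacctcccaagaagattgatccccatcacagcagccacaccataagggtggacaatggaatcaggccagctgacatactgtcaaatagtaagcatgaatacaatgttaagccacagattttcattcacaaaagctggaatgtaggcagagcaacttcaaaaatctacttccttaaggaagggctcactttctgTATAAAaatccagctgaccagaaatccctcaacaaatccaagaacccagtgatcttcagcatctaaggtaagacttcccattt
Sprr1a: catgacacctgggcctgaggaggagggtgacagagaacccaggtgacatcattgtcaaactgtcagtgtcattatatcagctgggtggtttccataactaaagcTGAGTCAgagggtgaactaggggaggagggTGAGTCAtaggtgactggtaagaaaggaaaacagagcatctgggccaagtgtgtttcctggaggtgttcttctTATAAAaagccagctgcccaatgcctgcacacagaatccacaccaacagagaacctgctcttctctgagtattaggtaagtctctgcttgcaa
The TATA box begins 30 bases before the start in Krtdap, 27 in Lor, 33 in Sprr3 and 43 in Sprr1a. Krtdap and Lor hold 1 AP-1 motif each, 81 and 48 bases before the start, and Sprr1a holds 2, at 146 and 116 bases. Searched on both strands, TATAAA occurred in 17 of 36 member windows (47.2%) and in 13.6% of all 32851 windows. TGANTCA occurred in 13 of 36 (36.1%) and in 7.81% of all. Among windows of genes at least 2-fold lower at 12 hours at any level it occurred in 6 of 22 (27.3%), and among those of the other members in 7 of 14, which belong to Ivl, Sprr1a, Sprr1b, Sprr2d, Sprr2f, Sprr2h and Sprr2k. TATAAA occurred in 8 of the same 22 and in 9 of the same 14. A grainyhead-like motif, AACNGGTT, occurred in 1 member window, that of Rptn (2.78%), and in 2.09% of all. The palindromic estrogen response element was in no member window and in 0.0700% of all. No marked motif overlaps another in the windows shown. Windows of close copies, such as the Lce1 genes and the Sprr2 genes, share sequence and are not independent.

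The lower envelope genes were accompanied by other genes of squamous epithelium on the same array. Of 16 squamous keratins 10 were at least 2-fold lower at 12 hours, with a median of -1.12. Krt4 and Krt13, a pair of suprabasal keratins of stratified mucosa, differed by -6.15 and -5.97, and Krt1 by -5.29. The summed linear signal of the 16 was 1842 at 12 hours, 6739 at 2.5 days and 7615 at 4.5 days, against 8329.95 in vehicle. Most of the 12-hour sum came from Krt23, which differed by 0.08. Without Krt23 the sum of the other 15 was 788 at 12 hours, 5523 at 2.5 days and 6301 at 4.5 days, against 7334 in vehicle. Of 12 squamous epithelium markers 9 were at least 2-fold lower, and 7 were above the array median at 12 hours, against 11 in vehicle. Most of these markers are keratins that are also among the 16, and others recur in lists below, so the counts overlap. The summed linear signal of these markers was 14796 at 12 hours, 18158 at 2.5 days and 17889.9 at 4.5 days, against 19479.8 in vehicle. Most of it came from Gsta4, which differed by 0.02 at 12 hours, and without that gene the sum of the other 11 was 752 at 12 hours, 3959.8 at 2.5 days and 4238 at 4.5 days, against 5638 in vehicle. The part of these markers in the envelope gene result was not tested. Among 23 cornification proteases and inhibitors 8 were lower, led by Serpinb12 at -5.52 and Spink5, an inhibitor of kallikreins, at -4.47. Of 14 barrier lipid enzymes 2 were lower, Elovl4 (3.85, against 5.85 in vehicle) and Cers3 (5.03, against 6.43), which both serve the making of skin ceramides. Of 16 squamous transcription factors 1 was called, Hopx at -1.33, while Trp63, the p63 gene of basal cells, differed by -1.27 below the median on both arrays. Of 11 desmosome plaque and other junction genes 1 was called, the plakophilin gene Pkp1 at -1.92, and the median was 0.12.

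Genes of other tissues and of the gastric glands differed as well. The 12 pancreatic acinar markers had a median of 5.97 at 12 hours, with 11 at least 2-fold higher, and their summed linear signal was 92026 at 12 hours, 21738 at 2.5 days and 10685 at 4.5 days, against 31546 in vehicle. Clps, the colipase gene, was at 14.64, 14.16 and 12.75, against 14.67 in vehicle, and without it the sum of the other 11 was 66411 at 12 hours, 3445 at 2.5 days and 3775 at 4.5 days, against 5478 in vehicle. The part of acinar markers in the envelope gene result was not tested either. Of 10 parietal cell markers 6 were lower at 12 hours and 7 at each later time, and of 6 chief cell markers 1 was lower at 12 hours, 4 at 2.5 days and 5 at 4.5 days. Cblif is in both lists and was counted in each, with -1.68 at 2.5 days and -2.39 at 4.5 days. Of 4 mucous neck cell markers 1 was called at each time, Cftr, a chloride channel gene, with -1.14 at 12 hours, 1.15 at 2.5 days and 2.38 at 4.5 days. Of 10 immune cell markers 1 was higher at 12 hours, 5 at 2.5 days and none at 4.5 days. Surface mucous cell markers, 5 in number, had a median of 0.00 at 12 hours, and 5 simple epithelial keratins one of 0.02. The 16 hair follicle and skin appendage markers had no call and a median of 0.09, with 3 above the array median at 12 hours and 4 in vehicle, and 1 of 5 melanocyte markers was above it on each array. Smooth muscle markers, 8 in number, were all below vehicle, with a median of -0.39 at 12 hours and none past 2-fold.

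**Figure D4:**
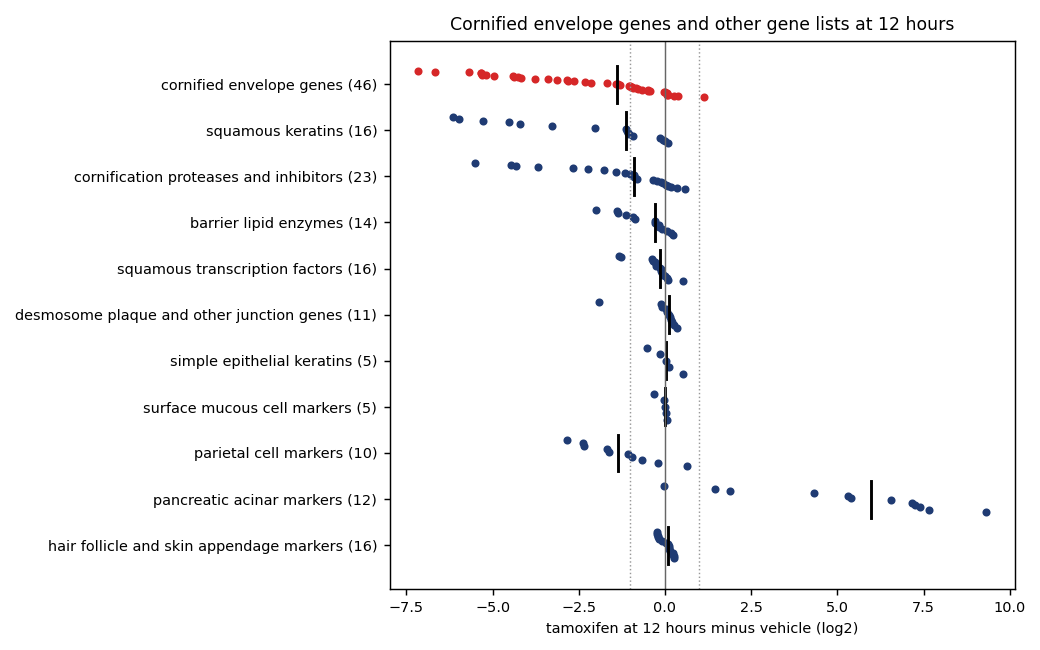
Difference between tamoxifen at 12 hours and vehicle (log2, horizontal axis) for the 46 cornified envelope genes and 10 other lists, 1 point per gene, with the number measured in brackets, the median of each list as a bar and 2-fold as dotted lines. Squamous keratins reach -6.15, simple epithelial keratins stay between -0.53 and 0.53, and pancreatic acinar markers reach 9.32.

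Set against the 12-hour array, the 2.5-day tamoxifen array had 24 of the 46 genes at least 2-fold higher and none lower, where 2.58% of 12205 genes were higher and 0.655% lower. At any level 26 were higher and none lower, where 1.86% and 0.456% of all genes were. The median difference was 1.32, led by Krtdap at 6.61, and it shares the 12-hour array with the comparison against vehicle. Between 4.5 and 2.5 days none of the 46 was called, where 0.248% of 12117 genes were higher and 0.182% lower at 4.5 days, and none at any level, where 0.170% and 0.132% were. The median was 0.19 and the range ran between -0.44 for Ivl and 0.68 for Sprr1b. At 4.5 days 39 of 46 lay higher, where 8762 of all 18193 genes did. For 24 of 46 the levels stood in 1 order, with 12 hours lowest, then 2.5 days, 4.5 days and vehicle. How many of all genes had this order was not counted, and it rests on the same 12-hour and vehicle arrays as the differences above. This order held all of Lor, Krtdap, Crct1, Cnfn, Sbsn, Flg, Hrnr, Rptn, Sprr3, Calml3 and Ppl, and 13 of the 15 Lce genes. Lce genes were below vehicle in 15 of 15 cases at 2.5 days and 14 of 15 at 4.5 days. The 12 squamous epithelium markers lay below vehicle in 7 cases at 2.5 days and 6 at 4.5 days, with medians of -0.03 and 0.01. Without Gsta4 their summed linear signal was 3959.8 and 4238, against 5638 in vehicle. Of 16 squamous keratins 7 and 6 lay below vehicle, and of 14 barrier lipid enzymes 12 and 12. Cornification proteases and inhibitors, 23 in number, did so in 18 and 16 cases, and all 18193 genes in 9635 and 9596. Comparisons of the later times with vehicle do not involve the 12-hour array. Smooth muscle markers, also below vehicle then, had medians of -0.81 and -0.71.

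Several probe sets were present for 12 genes, and those of 1 gene could disagree. Lor had 3, with -5.32, -7.41 and -0.83 at 12 hours, the last above the median in vehicle alone. Both probe sets of Lce1a1 were close, at -4.42 and -4.74, as were the 2 brighter ones of Sbsn, at -3.12 and -2.64. The dim second probe sets of Lce1f and Dsc1 gave -1.15 and -0.36. The 6 probe sets of Dsg2 ranged between -0.09 and 0.60.

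**Figure D5:**
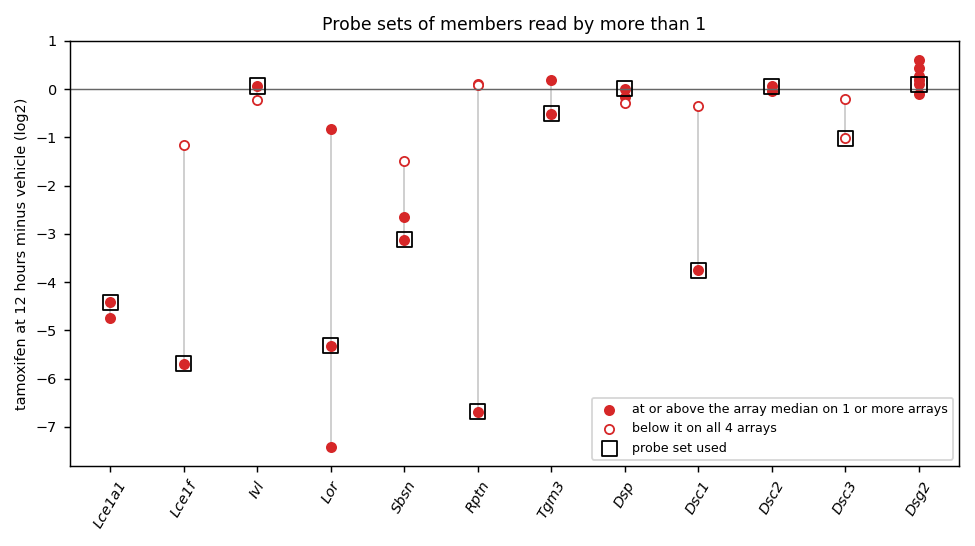
Difference between tamoxifen at 12 hours and vehicle (log2, vertical axis) for each probe set of the 12 genes that have more than 1, with filled points at or above the array median on 1 or more arrays, open points below it on all 4, and squares on the probe set used. The probe sets of Rptn lie at -6.68, 0.09 and 0.10, the last 2 dim on every array.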

How the data were processed

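Per the labels' protocols, total RNA pooled from 3 mice per array was amplified and labelled with biotin. The authors deposited log2 values of 45101 probe sets. The submitters' processing notes name Partek and RMA without a version, and the log base was inferred from a range of 2.06 to 14.85. Quantile normalization, a step of RMA, hides any shift shared by most genes. The number of arrays limits the precision.

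Genes were named by the platform annotation from 34945 probe sets with 1 symbol. Control probe sets (64) and those with several symbols (932) were not used for genes. All 46 members matched RefSeq. Differences of log2 values were taken in 5 comparisons with Python 3.11.15 and pandas 2.3.3, and counted at 2-fold. The counting was tested on simulated data with the noise of the closest pair of arrays, changing only genes well above the median. That gives no error rate for dim genes or for the wider spread against vehicle. No p-value is given. All members could be named, and of each other list the up to 4 genes with the largest absolute difference at 12 hours. Krt16, Krt23, Gsta4 and Clps fall outside this rule and were chosen after their values were seen. Members and the 17 lists were chosen with earlier results of these data known. Alternatives covered the probe set, the filter on dim genes, the scaling and the fold.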

Additional observations from a re-analysis of the deposited data

Results flagged for a closer look

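In 3 Sprr2 genes the difference from vehicle ran in opposite directions at different times after tamoxifen, each by more than 3 robust SDs of the closest pair of arrays (0.43). Sprr2d differed by -0.83 at 12 hours and 0.55 at 2.5 days. Sprr2f differed by -0.49 at 12 hours and 0.57 at 4.5 days, and Sprr2i by -1.05 at 12 hours and 0.61 at 4.5 days. The spread of all genes between the arrays compared was wider, with a robust SD against vehicle of 0.257 at 12 hours, 0.338 at 2.5 days and 0.373 at 4.5 days. By these, both values of Sprr2f and the later values of Sprr2d and Sprr2i are under 2 SDs. Each time has 1 array and vehicle is shared, so the difference between times was not tested.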

How the results depend on the processing

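The count of genes at least 2-fold lower at 12 hours (25) stayed within 1.5 times under all 9 alternatives run. The median at 12 hours (-1.39) was -3.12 over the 29 genes past the 75th percentile and -2.73 over the 36 past the array median, a filter on the median that was added after seeing the data. A gene that passes such a filter only through vehicle had to differ. At 2.5 days the medians were -0.89 and -0.69 under these filters, at 4.5 days -0.64 and -0.48, and between 2.5 days and 12 hours 2.14 and 1.74. Without probe sets ending _x_at or _s_at the 4.5-day median was -0.16. With the median over a gene's probe sets the step between 2.5 days and 12 hours had a median of 1.04, no gene was higher at 2.5 or 4.5 days (0 at each), and Rptn turned to 0.085 at 12 hours, its other probe sets being dim. Causes of the other shifts were not tested. With the 75th percentile filter 0 were higher at 2.5 and at 4.5 days, and 12 at 2.5 days against 12 hours. At 4.5 days 5 were lower with centred arrays and 6 with repeated quantile normalization, against 3, by shifts of an array of at most 0.06 under centring. At 1.5-fold 20 were lower and 2 higher at 2.5 days, 17 lower and 4 higher at 4.5 days, and 1 lower at 2.5 days against 12 hours. At 3-fold 0 were higher at 12 hours, 0 lower at 2.5 days, and 0 higher and 0 lower at 4.5 days. Dim probe sets limit what can be read for 8 genes. No paired analysis was possible because each group has 1 array.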

Other observations

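Of the other squamous genes, Krt16, a keratin known to appear in wounded and hyperproliferative epidermis, was at 3.86 at 12 hours, 6.59 at 2.5 days and 6.40 at 4.5 days after tamoxifen, against 4.90 in vehicle. It was the 1 squamous keratin at least 2-fold higher at 2.5 and 4.5 days, by 1.69 at the first of these times. Krt6b, of a family that pairs with Krt16, differed by -4.51 at 12 hours and by 0.62 and 0.75 at the later times, and Krt6a by -3.27, 0.67 and 0.46. Krt4, at -1.16 and -1.07, was the 1 squamous keratin at least 2-fold lower at the later times.

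Sprr2a genes, which have near-identical copies, were read by 3 probe sets annotated to several symbols and so are not among the 46. The first was at 12.58, 12.79 and 12.75 at 12 hours and at 2.5 and 4.5 days after tamoxifen, against 12.36 in vehicle. The second was at 14.48, 14.64 and 14.66, against 14.44, and the last at 14.01, 14.06 and 14.07, against 14.00. None differed from vehicle by more than 0.43 at any time. At 12 hours they differed by 0.23, 0.04 and 0.01, on the array where Sprr3 was 30.9-fold lower. The brighter 2 lay near the top of the scale.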
